A study of Mus musculus with 6 samples.

Results

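Clade B serpins are the members of the serpin family named Serpinb with a number, and they were chosen here by symbol. Among the 43629 gene identifiers of the count table, 27 carried such a symbol, and each was kept whatever its counts. They lie in 2 clusters, with 12 members in 749 kb of chromosome 1 (106861173 to 107610484, GRCm38) and 15 members in 1160 kb of chromosome 13 (32842092 to 34002794). The mouse has small local families in these clusters, and the letter after the number names the copy, as in Serpinb1a, Serpinb1b and Serpinb1c. The members were further split by their own control counts into silent, weak and active genes, so the split describes the data and is no finding.

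Epidermal cells of mice at P3 (postnatal day 3) were grown for 5 days as keratinocyte cultures, and the RNA of 3 control and 3 Dnmt1Δ/Δep cultures was sequenced. Culture takes keratinocytes away from the surrounding skin, and the comparison addresses which genes change there once the maintenance DNA methyltransferase DNMT1 is lost. Dnmt1Δ/Δep mice carried floxed Dnmt1 alleles (Dnmt1 f/f) and K5-Cre, a recombinase driven by the Keratin 5 promoter, which is active in the basal epidermis and related epithelia. Control mice carried floxed Dnmt1 without Cre, as f/f or f/+ in the study's text, and the genotype of each control was not given. All mice were female according to the labels and had a mixed C57BL/6J 129SV background, and the medium was low in calcium, which keeps keratinocytes largely in a basal state. Each library was described as a biological replicate. Bulk RNA was measured, so fewer cells of a type and less RNA per cell cannot be told apart.

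Serpins are protease inhibitors that act as bait. A target protease cuts an exposed stretch, the reactive centre loop, and is then trapped on the serpin in an inactive covalent complex. Members of clade B lack a classical signal peptide and mostly stay inside the cell, where they protect it from misdirected granzymes, cathepsins and leukocyte proteases, and several are known from epidermis and other barrier epithelia.

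Reads on genes ranged from 53433121 to 115526598 per library. In these libraries, 3 reads corresponded to 0.0254 to 0.0558 CPM (counts scaled to library size), which is the limit that a count of 0 allows, for counting error only. Dnmt1 was at 324 to 394 CPM in the control libraries and at 49.7 to 54.3 CPM in the Dnmt1Δ/Δep cultures. The basal keratinocyte markers Krt5 and Krt14 were the highest of the marker genes in all 6 libraries, and the summed level of 8 basal markers ranged from 29100 to 33200 CPM in the control group and from 22500 to 22900 CPM in the Dnmt1Δ/Δep group. Most of that sum was Krt5 and Krt14. Of the 8, Krt15 was called downregulated (log2 fold change -3.66, edgeR adjusted p = 0.019), Itga3, Itga6 and Itgb4 had positive fold changes, and 7 were not called. Markers of other cells moved as well. The summed level of 5 melanocyte markers was 148 to 386 CPM with DNMT1 and 456 to 599 CPM without it, with 0 of 5 called. The endothelial markers Cdh5 and Pecam1 were called upregulated and Kdr was not, with 4.32 to 16.5 and 13.5 to 20.8 CPM for the 3 together. The part of these cells in the serpin results was not tested.

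The promoters bear on genes that DNA methylation could reach, and 4 are shown because they belong to the largest riser, to a copy of the Serpinb9 family that was silent in control, and to an active paralogue. They are RefSeq sequences on GRCm38.p6, 250 bases before to 50 bases after the annotated start, written 5′ to 3′ on the strand of the gene. Capitals mark each CG dinucleotide, the target of DNMT1. Serpinb1c has 2 annotated starts in RefSeq, of which the downstream one (chr13:32898091-32898390, minus strand) lies next to the GENCODE start and the upstream one is at chr13:32940551-32940850 on the same strand. The Serpinb9g promoter is at chr13:33484540-33484839 on the plus strand, and that of Serpinb6a is at chr13:34002745-34003044 on the minus strand.
Serpinb1c, downstream start: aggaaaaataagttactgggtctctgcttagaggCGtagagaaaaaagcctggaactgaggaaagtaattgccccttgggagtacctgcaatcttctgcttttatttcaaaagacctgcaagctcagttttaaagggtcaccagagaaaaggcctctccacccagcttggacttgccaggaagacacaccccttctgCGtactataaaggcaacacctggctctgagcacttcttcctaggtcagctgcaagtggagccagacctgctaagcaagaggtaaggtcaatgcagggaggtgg
Serpinb1c, upstream start: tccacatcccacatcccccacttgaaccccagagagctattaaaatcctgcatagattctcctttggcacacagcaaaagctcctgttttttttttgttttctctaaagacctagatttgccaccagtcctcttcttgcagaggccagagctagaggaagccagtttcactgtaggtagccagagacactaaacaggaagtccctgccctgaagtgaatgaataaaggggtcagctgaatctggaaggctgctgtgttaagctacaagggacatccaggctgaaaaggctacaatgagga
Serpinb9g: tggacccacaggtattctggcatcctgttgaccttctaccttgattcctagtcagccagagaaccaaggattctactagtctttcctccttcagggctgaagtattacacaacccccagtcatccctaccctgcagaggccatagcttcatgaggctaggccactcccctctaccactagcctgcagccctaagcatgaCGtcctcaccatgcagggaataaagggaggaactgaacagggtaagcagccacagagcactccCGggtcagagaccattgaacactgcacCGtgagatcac
Serpinb6a: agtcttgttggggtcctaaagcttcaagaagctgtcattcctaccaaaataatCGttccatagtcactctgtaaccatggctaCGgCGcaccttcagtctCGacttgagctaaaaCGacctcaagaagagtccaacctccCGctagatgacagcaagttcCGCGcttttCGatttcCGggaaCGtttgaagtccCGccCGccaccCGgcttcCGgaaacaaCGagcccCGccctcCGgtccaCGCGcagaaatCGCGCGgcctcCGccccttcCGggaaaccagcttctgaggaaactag

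The sequences show sparse CG dinucleotides in the silent genes and a dense stretch in Serpinb6a. A promoter was listed for 25 of the 27 members, the others being Serpinb13 and Serpinb1a. Some listed starts lay far from the start of the GENCODE gene model. The distance was 117247 bases for Serpinb3b, 23034 for Serpinb7, 5528 for Serpinb1b, 1291 for Serpinb9 and 1116 for Serpinb11. It was at most 517 bases for the others. The number of CG dinucleotides was 2 at the downstream start of Serpinb1c, 0 at its upstream start, 3 in Serpinb9g and 25 in Serpinb6a. Among all 32851 promoters of this length the median was 7, with quartiles at 3 and 20. The median over the 25 members was 2, and 22 of them had at most 5, against 43.6% of all promoters. Serpinb6c had 10 and Serpinb5 had 7. No CG dinucleotide was present in 8 members, against 5.43% of all promoters.

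Low CG content was not a property of the silent members alone. The median was 2.5 in the 6 silent members with a promoter, 2 in the 7 weak members and 1.5 in the 12 active members. The TATA box letters TATAAA, searched on both strands, were present in 9 of 25 members (36.0%) and in 13.6% of all promoters. The letters GAAA followed after 2 bases by GAAA, part of the interferon-stimulated response element and searched on both strands, were present in the promoters of Serpinb9 and Serpinb6a, that is 8.0% of members against 3.44% of all promoters. These matches are letters in a window and not measured binding, and no methylation was measured in these libraries.

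**Figure D1:**
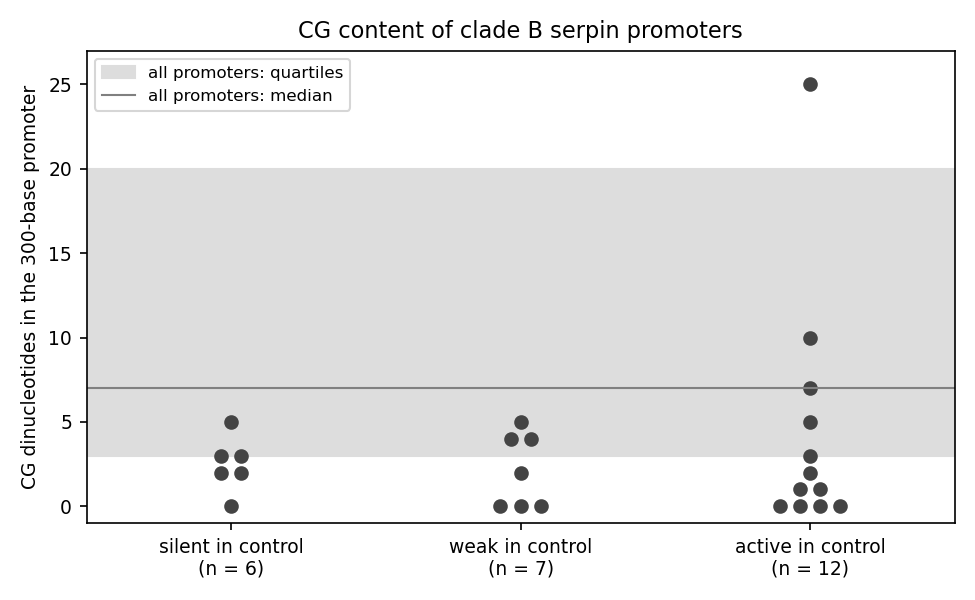
Number of CG dinucleotides in the 300-base promoter (y axis) of 25 clade B serpins, grouped by their class in control (x axis); each point is 1 gene. The grey line is the median of all 32851 promoters (7) and the grey band the range between their quartiles (3 to 20). Most members lie at or under 5 in each class, and Serpinb6a stands at 25.

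In control keratinocytes the family was dominated by a few members. Levels between genes are compared as RPKM, reads scaled to exon length and library size. Serpinb2, the plasminogen activator inhibitor type 2, had 405 ± 65.7 RPKM (SD, n = 3 here and below), and Serpinb5 (maspin), a serpin without inhibitory activity, had 220 ± 46.6 RPKM. Serpinb6a, an inhibitor of cathepsin G and other serine proteases, followed with 46.8 ± 8.81 RPKM, then Serpinb6c with 36.4 ± 5.77 and Serpinb8, an inhibitor of furin, with 11.5 ± 3.48 RPKM. The control libraries of neighbours in this order did not overlap down to Serpinb8. Below it, each member overlapped with the next one down to Serpinb9c at 0.111 ± 0.0233 RPKM.

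By their control counts, 7 members were silent (at most 3 reads in each control library), 13 were active (a control mean of at least 1 RPKM, the expression threshold of the study's methods) and 7 were weak. The silent members were Serpinb13 on chromosome 1 and Serpinb1c, Serpinb9d, Serpinb9e, Serpinb9f, Serpinb9g and Serpinb6d on chromosome 13. The active members were Serpinb2, Serpinb3a, Serpinb3b, Serpinb5, Serpinb7, Serpinb8, Serpinb10, Serpinb11 and Serpinb12 on chromosome 1 and Serpinb1a, Serpinb1b, Serpinb6a and Serpinb6c on chromosome 13. The weak members were Serpinb3c, Serpinb3d, Serpinb6b, Serpinb6e, Serpinb9, Serpinb9b and Serpinb9c. Nearest to the limits were Serpinb9g, with at most 2 control reads, and Serpinb3d outside with at most 5, and Serpinb3b inside the active class with 1.24 RPKM and Serpinb9 outside with 0.615 RPKM.

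**Figure D2:**
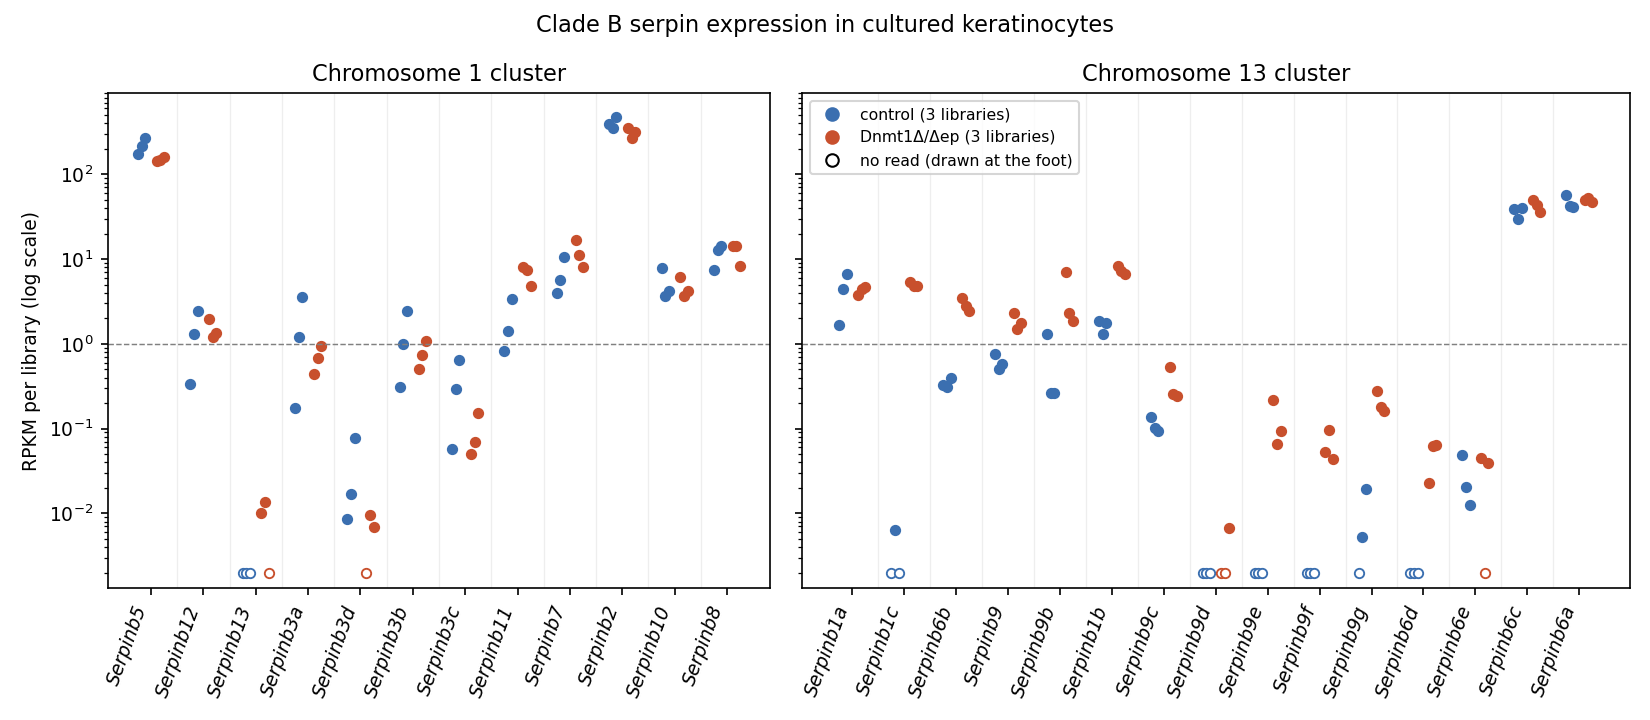
Expression of the 27 clade B serpins in RPKM (y axis, log scale) in each of 3 control (blue) and 3 Dnmt1Δ/Δep (red) libraries, in genome order along each cluster (x axis). Open points at the foot are libraries without a read, and the dashed line is 1 RPKM. Serpinb2 and Serpinb5 are highest in all 6 libraries, and Serpinb1c goes from at most 0.00628 RPKM in control to 4.82 to 5.36 RPKM in Dnmt1Δ/Δep.

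In Dnmt1Δ/Δep keratinocytes, 6 clade B serpins were called upregulated and 0 downregulated (edgeR, quasi-likelihood fit, p adjusted by Benjamini-Hochberg over all genes tested, adjusted p up to 0.05 and 2-fold or more). These were Serpinb1b, Serpinb1c, Serpinb6b, Serpinb9, Serpinb9e and Serpinb9g, all on chromosome 13. Of the 27 members, 21 had enough reads to be tested, and over all genes tested 6.03% were called upregulated and 0.392% downregulated. At an unadjusted p up to 0.05 with the same 2-fold limit, 9 of the 21 were higher (9.54% of all genes) and 0 lower (0.897%). Without the fold limit, 2 were lower at that p, Serpinb5 and Serpinb2, against 7.79% of all genes. DESeq2 called 9 upregulated (7.63% of all genes) and 0 downregulated. With the replicate number as a block, 8 of 21 were upregulated (6.97% of all genes), and without the read filter 10 of 27 (4.68% of all genes). The median log2 fold change was 0.25 over the 21 tested members and 0.00 over all 16829 genes tested. A silent gene passes the read filter only through the Dnmt1Δ/Δep libraries and can only rise, so these counts are not support for a shared direction.

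All 6 calls fell in the same cluster. On chromosome 13, 11 of 15 members were tested and 6 were upregulated, against 6.03% of all genes tested. The 11 fold changes were all positive and their median was 2.16. Of these 11, Serpinb1c, Serpinb9e and Serpinb9g were silent in control, passed the read filter only through the Dnmt1Δ/Δep libraries and could only rise. They make up 3 of the 6 calls and also enter the median and the separation of libraries given below. On chromosome 1, 10 of 12 members were tested, 0 were upregulated, 6 had a negative fold change and the median was -0.27. No silent member was tested there. Without control replicate 3, the chromosome 1 median turned to 0.14, with 4 negative fold changes and Serpinb11 called upregulated, and that of chromosome 13 was 2.21. The 1 member of chromosome 13 that turned negative in some fits was Serpinb1a. All 3 Dnmt1Δ/Δep libraries lay above all 3 control libraries for 8 of the 11 tested members on chromosome 13 and 1 of 10 on chromosome 1, against 18.2% of all genes tested, and for 2 untested members on chromosome 13, Serpinb9f and Serpinb6d. They lay below for 1 member, Serpinb5, against 11.7% of all genes tested. The difference between the clusters was not tested.

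**Figure D3:**
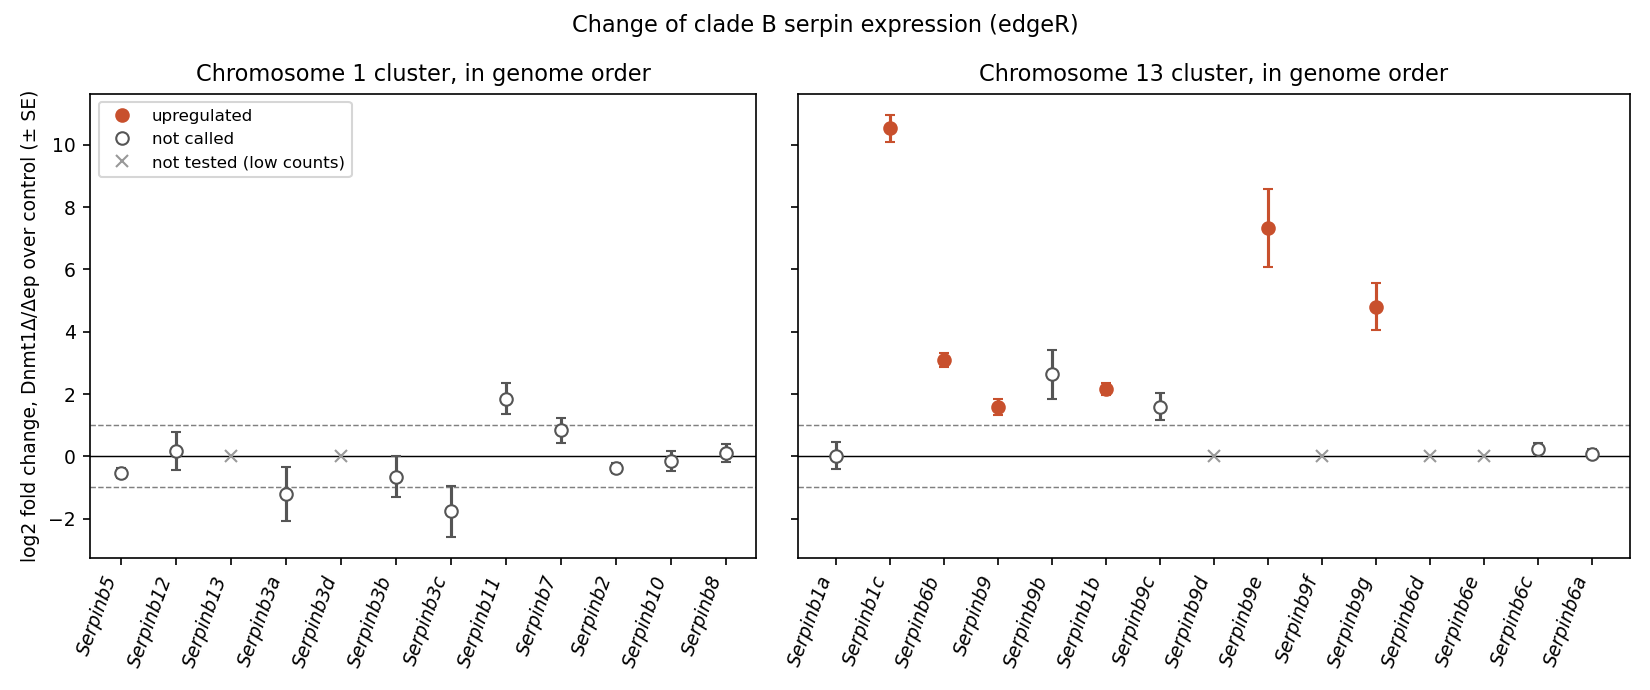
Log2 fold change of Dnmt1Δ/Δep over control (y axis, with the standard error of the edgeR fit) for the clade B serpins in genome order (x axis) on chromosomes 1 and 13. Red points are upregulated, open points were tested and not called, crosses at 0 were not tested, and dashed lines mark 2-fold. The 6 red points are all on chromosome 13, and the fitted values of Serpinb1c, Serpinb9e and Serpinb9g rest on almost no control reads.

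The Serpinb1 family held the largest change. Its members inhibit neutrophil serine proteases in the case of Serpinb1a and cathepsin G in the case of Serpinb1b, while Serpinb1c is the least studied copy. Serpinb1c (ENSMUSG00000079049, chromosome 13, 32881434 to 32898211, minus strand) had 0, 1 and 0 reads in control replicates 1, 2 and 3, and 522, 681 and 935 reads in the Dnmt1Δ/Δep replicates. In CPM the Dnmt1Δ/Δep level was 8.76, 7.88 and 7.92. It was thus close to absent in all control libraries and present at a similar level in the 3 others. The ratio of the pooled levels was 1990, with an exact 95% counting interval of 357 to 78600 from the 1 control read, and the adjusted p was 8.8e-05. The fitted log2 fold change of 10.53 depends on the prior count and sets no bound.

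Serpinb1b and Serpinb1a were active in control. Serpinb1b had 1.85, 1.30 and 1.77 RPKM in control and 8.21, 7.16 and 6.59 RPKM in Dnmt1Δ/Δep. The groups did not overlap, and Serpinb1b, an active gene, rose 4.46-fold (log2 fold change 2.16, standard error 0.19, adjusted p = 0.0010). Serpinb1a had 1.67, 4.40 and 6.65 RPKM in control and 3.73, 4.40 and 4.74 RPKM in Dnmt1Δ/Δep. The control libraries of Serpinb1a spread more widely than, and enclosed, the Dnmt1Δ/Δep libraries (log2 fold change 0.02, standard error 0.43, adjusted p = 0.99). In RPKM means, Serpinb1c reached 5.01 ± 0.303, beside 7.32 ± 0.821 for Serpinb1b and 4.29 ± 0.515 for Serpinb1a.

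A further transcript at this locus moved with Serpinb1c. Gm11382 (chromosome 13, 32938513 to 32938691, minus strand), annotated as an unprocessed pseudogene, had 0, 1 and 1 reads in control and 98, 144 and 173 reads in Dnmt1Δ/Δep. It was absent or nearly so in control and well counted in each Dnmt1Δ/Δep library (ratio 193, exact 95% counting interval 53.1 to 1600, adjusted p = 0.00053). Its reads were 18.8%, 21.1% and 18.5% of those of Serpinb1c in Dnmt1Δ/Δep replicates 1, 2 and 3. Gm11382 lies outside the GENCODE model of Serpinb1c but inside the RefSeq model, which runs from 32881218 to 32940628 and begins at the upstream start shown above. Which start was used was not tested, since no reads across splice sites were analysed here. Serpinb1-ps1, a pseudogene of the same family, had 0 reads in control and 6, 1 and 8 reads in Dnmt1Δ/Δep.

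The 3 Serpinb1 copies are similar but distinguishable by reads. Their coding sequences were 86.1% to 89.9% identical to each other, and 6.28% of the 50-base stretches of the Serpinb1c transcripts also occurred in another gene. The last 60 codons before the stop codon are shown because they hold the reactive centre loop, the part that meets the protease. Sequences are from the GENCODE M21 transcripts, and capitals mark bases that differ from Serpinb1a in an alignment of the coding parts or have no counterpart there.
Serpinb1a: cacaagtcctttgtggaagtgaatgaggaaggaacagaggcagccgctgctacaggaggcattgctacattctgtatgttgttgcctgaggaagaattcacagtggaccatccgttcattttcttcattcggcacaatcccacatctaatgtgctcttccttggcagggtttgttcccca
Serpinb1b: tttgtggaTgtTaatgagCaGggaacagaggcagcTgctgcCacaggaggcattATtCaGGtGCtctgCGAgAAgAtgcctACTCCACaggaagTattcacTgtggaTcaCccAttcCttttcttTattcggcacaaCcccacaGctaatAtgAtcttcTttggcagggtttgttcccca
Serpinb1c: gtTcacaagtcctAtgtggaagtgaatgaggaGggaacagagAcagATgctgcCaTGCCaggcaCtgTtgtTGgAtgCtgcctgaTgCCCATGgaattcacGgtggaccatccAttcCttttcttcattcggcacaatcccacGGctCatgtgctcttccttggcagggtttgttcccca

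In this stretch of 180 bases, Serpinb1b had 29 differing bases and 9 without a counterpart, and Serpinb1c had 26 and 4. The capitals gather in the middle of the stretch, while its end is nearly the same in all copies.

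The Serpinb9 family holds inhibitors of granzymes, the proteases with which cytotoxic lymphocytes kill. Of its 7 members, 5 were tested and 3 called upregulated, where 6.03% of all genes tested were. Of these 3, Serpinb9e and Serpinb9g had almost no control reads and could only rise. Serpinb9, which protects cells from granzyme B, had 0.766, 0.505 and 0.575 RPKM in control and 2.30, 1.51 and 1.75 RPKM in Dnmt1Δ/Δep. The groups did not overlap, and Serpinb9 rose 3.01-fold (log2 fold change 1.59, standard error 0.25, adjusted p = 0.0090).

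Serpinb9b, an inhibitor of granzyme M, was uneven between libraries. It had 1.29, 0.266 and 0.261 RPKM in control and 7.14, 2.32 and 1.88 RPKM in Dnmt1Δ/Δep. Replicate 1 was the highest of both groups, and the groups did not overlap. The log2 fold change was 2.63 (standard error 0.78, adjusted p = 0.085), so Serpinb9b was not called. With the replicate number as a block, the log2 fold change was 2.80 and the adjusted p 0.0022, which calls it. Without control replicate 1 they were 3.83 and 0.015, and without Dnmt1Δ/Δep replicate 1 they were 1.79 and 0.26. DESeq2 (adjusted p = 0.037) and the fit without a read filter (0.010) also called it, whereas leaving out any other library did not (0.11 to 0.23). An antisense gene, Gm36099, overlaps 8.3% of its exons.

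Serpinb9c stayed low, at 0.093 to 0.137 RPKM in control and 0.241 to 0.528 RPKM in Dnmt1Δ/Δep. All Dnmt1Δ/Δep libraries were above all control libraries, with an adjusted p of 0.062 in the unblocked fit and 0.030 with the replicate block, at a log2 fold change of 1.59 and 1.56. DESeq2 called it as well (adjusted p = 0.021).

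Serpinb9d, Serpinb9e, Serpinb9f and Serpinb9g lie in this order, with Gm11397 between Serpinb9f and Serpinb9g, and were silent in control. Serpinb9e had 0 reads in each control library and 25, 11 and 21 reads in Dnmt1Δ/Δep. Measured against a limit of 3 reads over the control group, it was at least 17.7-fold higher (adjusted p = 0.025). This call was lost without control replicate 2 (adjusted p = 0.073) and without Dnmt1Δ/Δep replicate 1 (0.066) or 3 (0.065), and without Dnmt1Δ/Δep replicate 2 the adjusted p rounded to 0.05 and lay above the threshold. Serpinb9g had 0, 1 and 2 reads in control and 32, 30 and 37 reads in Dnmt1Δ/Δep. Its ratio was 30.7 (exact 95% counting interval 10.2 to 151, adjusted p = 0.010), and without control replicate 2 the adjusted p was 0.064. Serpinb9f had 0 reads in each control library and 6, 16 and 10 reads in Dnmt1Δ/Δep, at least 9.93-fold more. It did not pass the read filter, and without that filter its adjusted p was 0.011. Serpinb9d had 1 read, in Dnmt1Δ/Δep replicate 3.

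Reads of these copies are hard to assign. Serpinb9f and Serpinb9g were 98.7% identical in their coding sequences, and 78.7% of the 50-base stretches of Serpinb9f, 54.8% of Serpinb9g, 30.8% of Serpinb9d and 28.4% of Serpinb9e also occurred in another gene, mostly in each other. The authors counted uniquely mapped reads, so reads in shared stretches were left out, and the values of the copies are uncertain relative to each other. Gm11397, the copy that RefSeq names Serpinb9h, had 0 reads in all 6 libraries. The sum of the 4 copies was 0, 1 and 2 reads in control and 63, 57 and 69 reads in Dnmt1Δ/Δep. Tested as 1 entry, an alternative chosen after seeing the data, the sum had an edgeR adjusted p of 0.0044. The 4 copies were silent in control, so their sum passed the read filter only through Dnmt1Δ/Δep and could only rise. The last 60 codons show how close the 3 counted copies are, with capitals for bases that differ from Serpinb9e.
Serpinb9e: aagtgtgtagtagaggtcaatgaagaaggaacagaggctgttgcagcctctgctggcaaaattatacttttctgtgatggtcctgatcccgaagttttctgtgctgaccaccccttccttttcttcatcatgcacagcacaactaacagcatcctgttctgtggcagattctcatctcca
Serpinb9f: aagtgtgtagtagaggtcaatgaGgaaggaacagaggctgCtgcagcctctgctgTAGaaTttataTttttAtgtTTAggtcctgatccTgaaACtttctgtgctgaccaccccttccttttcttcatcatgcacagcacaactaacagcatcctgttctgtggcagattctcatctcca
Serpinb9g: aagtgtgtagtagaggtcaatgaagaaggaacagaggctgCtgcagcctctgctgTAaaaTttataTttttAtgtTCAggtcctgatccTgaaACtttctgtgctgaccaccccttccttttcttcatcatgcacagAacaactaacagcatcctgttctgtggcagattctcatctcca

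Serpinb9f differed from Serpinb9e at 14 of 180 bases here and Serpinb9g at 13, and most of the capitals are shared by Serpinb9f and Serpinb9g.

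**Figure D4:**
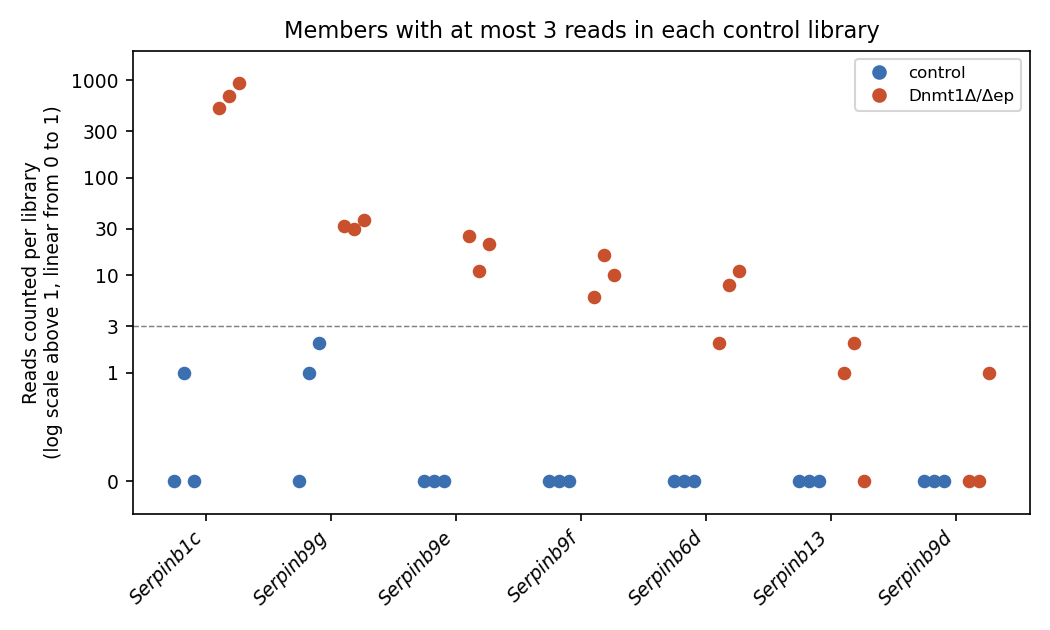
Reads counted in each library (y axis, log scale above 1 and linear from 0 to 1) for the 7 clade B serpins with at most 3 reads (dashed line) in every control library (x axis), in 3 control (blue) and 3 Dnmt1Δ/Δep (red) libraries. Serpinb1c reaches 522 to 935 reads, Serpinb9g 30 to 37, Serpinb9e 11 to 25, Serpinb9f 6 to 16 and Serpinb6d 2 to 11, while Serpinb13 has at most 2 and Serpinb9d at most 1.

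In the Serpinb6 family, 3 of 5 members were tested and 1, a weak one, was called upregulated, where 6.03% of all genes tested were. Serpinb6b, an inhibitor of granzyme A in the mouse, had 0.327, 0.313 and 0.395 RPKM in control and 3.51, 2.82 and 2.44 RPKM in Dnmt1Δ/Δep. Its groups were far apart, and it rose 8.47-fold (log2 fold change 3.09, standard error 0.23, adjusted p = 0.00052). Serpinb6d was silent in control, with 0 reads, and had 2, 8 and 11 reads in Dnmt1Δ/Δep, at least 6.51-fold more. It did not pass the read filter, and its adjusted p without the filter was 0.041. Serpinb6e had 7, 3 and 1 reads in control and 4, 0 and 7 in Dnmt1Δ/Δep, and the groups overlapped.

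For the highly expressed paralogues the groups overlapped. Serpinb6a had 308, 227 and 225 CPM in control, and 270, 283 and 255 CPM in the Dnmt1Δ/Δep cultures. Serpinb6c had 38.9, 29.8 and 40.5 RPKM in control and 50.3, 43.9 and 35.8 RPKM in Dnmt1Δ/Δep. Neither was called, with log2 fold changes of 0.09 (standard error 0.14, adjusted p = 0.79) and 0.25 (standard error 0.17, adjusted p = 0.44). Exons of Nqo2, Ripk1 and 1110046J04Rik on the other strand overlap 29.3% of the exons of Serpinb6a, and the strand setting of the counting was not given in the sources used here.

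Serpinb9, Serpinb6b and the Serpinb1 genes are also expressed by leukocytes, so leukocyte markers were set beside them. The summed level of 11 markers was 0.349 to 1.02 CPM in control, and 2.58 to 4.5 CPM in the Dnmt1Δ/Δep cultures, and Csf1r and Itgam were called upregulated among the 3 that could be tested. Ptprc, which encodes the pan-leukocyte marker CD45, was at most 0.0372 CPM in control, and 0.201 CPM in the Dnmt1Δ/Δep cultures, Ncr1 and Nkg7 were at 0 in all libraries, and the 6 neutrophil markers summed to at most 0.149 CPM. In CPM, Serpinb1c was at 7.88 to 8.76, Serpinb6b at 5.52 to 7.94 and Serpinb9 at 5.26 to 8.04 in Dnmt1Δ/Δep. The part of leukocytes in these values was not tested.

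On chromosome 1, the 2 dominant genes were lower on average in Dnmt1Δ/Δep and were not called. Serpinb5 had 174, 218 and 268 RPKM in control and 144, 149 and 162 RPKM in Dnmt1Δ/Δep. Each Dnmt1Δ/Δep library was below each control library (log2 fold change -0.54, standard error 0.16, adjusted p = 0.084), and with the replicate block the adjusted p was 0.038 at a log2 fold change of -0.52, which is less than 2-fold. Serpinb2 had 389, 349 and 477 RPKM in control and 352, 268 and 320 RPKM in Dnmt1Δ/Δep. The groups overlapped through control replicate 2 (log2 fold change -0.37, standard error 0.16, adjusted p = 0.20). The summed basal keratinocyte markers, mostly Krt5 and Krt14, were also lower in Dnmt1Δ/Δep, whereas Itga3, Itga6 and Itgb4 were higher on average, and the part of the basal cells in these values was not tested.

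Serpinb11 was the member of this cluster with the largest positive fold change. It had 0.827, 1.40 and 3.43 RPKM in control and 8.05, 7.37 and 4.87 RPKM in Dnmt1Δ/Δep. All Dnmt1Δ/Δep libraries were above all control libraries, with control replicate 3 nearest to them. The log2 fold change was 1.85 (standard error 0.50, adjusted p = 0.062), so Serpinb11 was not called, whereas without control replicate 3 it was called at 2.60 (adjusted p = 0.0082), and DESeq2 called it as well (adjusted p = 0.00083).

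Serpinb7, which is mutated in a human palmoplantar keratosis, had 4.02, 5.63 and 10.6 RPKM in control and 16.8, 11.2 and 8.02 RPKM in Dnmt1Δ/Δep. The groups overlapped (log2 fold change 0.83, standard error 0.40, adjusted p = 0.26). Serpinb8 had 7.51, 12.7 and 14.1 RPKM in control and 14.1, 14.4 and 8.29 RPKM in Dnmt1Δ/Δep. Its groups overlapped almost fully (log2 fold change 0.10, adjusted p = 0.90).

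Serpinb12, an inhibitor of trypsin-like proteases, had 0.334, 1.29 and 2.44 RPKM in control and 1.99, 1.19 and 1.35 RPKM in Dnmt1Δ/Δep. The control values enclosed the others (log2 fold change 0.17, adjusted p = 0.92). Serpinb10 had 7.83, 3.65 and 4.22 RPKM in control and 6.14, 3.72 and 4.21 RPKM in Dnmt1Δ/Δep, with overlapping groups (log2 fold change -0.16, adjusted p = 0.84). Serpinb10 is annotated as a polymorphic pseudogene, and 8.34% of its exons overlap exons of the far more abundant Serpinb2.

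The Serpinb3 genes, related to the human squamous cell carcinoma antigens and known as inhibitors of cysteine and serine proteases, were not called. Serpinb3a, Serpinb3b and Serpinb3c were tested and had negative fold changes. Serpinb3a had 0.175, 1.21 and 3.54 RPKM in control and 0.442, 0.688 and 0.956 RPKM in Dnmt1Δ/Δep. Serpinb3b had 0.307, 0.991 and 2.42 RPKM in control and 0.507, 0.747 and 1.08 RPKM in Dnmt1Δ/Δep. In each case the control libraries differed among themselves by more than the groups did (log2 fold changes -1.21 and -0.65, adjusted p = 0.48 and 0.65). Without control replicate 3, the log2 fold changes turned to 0.01 and 0.27. Serpinb3c, at 0.0574 to 0.640 RPKM in control and 0.0506 to 0.153 RPKM in Dnmt1Δ/Δep, had a log2 fold change of -1.77 (adjusted p = 0.26) and was called downregulated without control replicate 1 (-2.27, adjusted p = 0.046) and in no other fit, with -0.91 without control replicate 3. Serpinb3d had at most 5 reads in any library, and Serpinb13, a keratinocyte inhibitor of cathepsins L and K, at most 2. Of their 50-base stretches, 12.2% to 15.0% were shared between the Serpinb3 genes and nearby pseudogenes.

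Several chromosome 1 genes were lowest in control replicate 1 and highest in control replicate 3, as the values of Serpinb3a, Serpinb3b, Serpinb7, Serpinb11 and Serpinb12 show. The summed level of 16 markers of keratinocyte differentiation was 1500, 2140 and 3110 CPM in control replicates 1, 2 and 3, and 2530, 2260 and 1490 CPM in Dnmt1Δ/Δep, with Cnfn the only one called upregulated. Fold changes were negative for Krt1, Krt10, Krtdap, Tgm3, Casp14, Calm4, Dsc1 and Dsg1a. They were positive for Cnfn, Lor, Ivl, Klk7, Tgm1, Sbsn and Flg2. From Dnmt1Δ/Δep replicate 1 to 3, Serpinb7 and Serpinb11 fell with the sum and Serpinb3a and Serpinb3b rose, while Serpinb12 was lowest in replicate 2. The part of differentiation in these serpin values was not tested.

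By class, the 6 calls fell on 3 silent, 2 weak and 1 active member, with no test between the classes. Of the 7 silent members, 3 were tested, each of which passed the read filter through the Dnmt1Δ/Δep libraries and so had to be higher there, and their calls are not set against those of the other classes. Beside 6.03% called upregulated over all genes tested, 5 of the 7 weak members were tested, 2 were upregulated and the median log2 fold change was 1.59. All 13 active members were tested, 1 was upregulated, Serpinb1b, and the median was 0.09. Within chromosome 13, the medians were 2.11 for the 4 tested weak members and 0.17 for the 4 active members. On chromosome 1, they were -1.77 for the 1 tested weak member and -0.16 for the 9 active members.

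The makeup of the family differed between the groups, as a description without a test. Summed over the 27 members, expression was 746 ± 115 RPKM in control and 623 ± 50.3 RPKM in Dnmt1Δ/Δep. Serpinb2 and Serpinb5 together made up 82.1%, 84.3% and 84.8% of that sum in control and 73.4%, 72.4% and 78.1% in Dnmt1Δ/Δep. The share of Serpinb6a and Serpinb6c was 11.3 ± 2.40% and 15.0 ± 1.61%, and that of the other 23 members was 4.95 ± 0.946% and 10.3 ± 1.72%. The chromosome 13 members other than Serpinb6a and Serpinb6c summed to 6.09, 6.92 and 9.78 RPKM in control and 31.4, 23.7 and 22.9 RPKM in Dnmt1Δ/Δep. The groups did not overlap in the share of the 2 dominant genes or in the chromosome 13 sum. From 10 to 13 members reached 1 RPKM in a control library and 15 or 16 in a Dnmt1Δ/Δep library.

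Serpins of other clades were counted for comparison. Of 36 such genes, 17 were tested, 1 was upregulated, 0 were downregulated and the median log2 fold change was 0.09, against 6.03% and 0.392% called over all genes tested. The count of 1 became 4 with DESeq2 or without the read filter, and 3 with the replicate block or without control replicate 1. It became 2 without control replicate 3 or Dnmt1Δ/Δep replicate 2, and 0 without any 1 of the other 3 libraries. The fits that gave 4 or 3 each also called 1 downregulated. The gene called upregulated in the unblocked edgeR fit was Serpind1, heparin cofactor II. It had 0, 1 and 1 reads in control and 8, 10 and 14 reads in Dnmt1Δ/Δep. Its ratio was 14.9 (exact 95% counting interval 3.80 to 128, adjusted p = 0.026), at a level close to the limit of detection. The other genes in and around the 2 clusters, up to 500 kb beyond the outer members, numbered 56. Of the 15 tested, Gm11382 was upregulated, 0 were downregulated and the median log2 fold change was 0.17. Gm11382 lies inside the RefSeq model of Serpinb1c, so it may not be a separate neighbour. Like Serpind1, it passed the read filter only through Dnmt1Δ/Δep and could only rise. The difference from the clade B serpins was not tested.

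The proteases that clade B serpins are known to inhibit were examined as a list of 25 genes, of which 14 were tested, 3 were upregulated and 0 downregulated, against 6.03% and 0.392% of all genes tested, with a median log2 fold change of 0.57. Plau, which encodes urokinase, the target of Serpinb2, had 74.2, 50.4 and 62.5 CPM in control, and 266, 216 and 194 CPM in the Dnmt1Δ/Δep cultures. It rose 3.61-fold without overlap of the groups (log2 fold change 1.85, standard error 0.18, adjusted p = 0.0014). Klk8, a serine protease of the upper epidermis, had 39.2, 35.9 and 53.6 CPM in control, and 128, 126 and 76.4 CPM in the Dnmt1Δ/Δep cultures. Its groups did not overlap either (log2 fold change 1.36, standard error 0.24, adjusted p = 0.014), and an antisense gene overlaps 24.8% of its exons. Casp1, an inflammatory caspase, had 0.201, 0.277 and 0.186 CPM in control, and 0.939, 0.590 and 1.69 CPM in the Dnmt1Δ/Δep cultures, with Dnmt1Δ/Δep replicate 3 highest (log2 fold change 2.26, standard error 0.46, adjusted p = 0.024). The count of 3 fell to 1 without control replicate 2 or without Dnmt1Δ/Δep replicate 1.

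Most leukocyte proteases of this list had few or no reads. Ctsg, Gzma, Gzmd, Gzmf and Gzmg had 0 reads in all 6 libraries, and Gzme had 1. Gzmb, the target of Serpinb9, had 2 reads over the control group and 12 over the Dnmt1Δ/Δep group, and Elane had 3 and 1. Gzmm (granzyme M), the target of Serpinb9b, had more reads than these, with 0.424, 0.606 and 0.746 RPKM in control and 0.410, 0.558 and 0.449 RPKM in Dnmt1Δ/Δep. Its groups overlapped (log2 fold change -0.32, standard error 0.31, adjusted p = 0.63). The highest mean levels of the list in control were 95.4 ± 18.3 RPKM for Ctsl and 67.5 ± 7.4 RPKM for Ctsb, both lysosomal cathepsins, and in Dnmt1Δ/Δep they were 144 ± 30.1 RPKM for Ctsl and 95.2 ± 15.7 RPKM for Plau. Neither cathepsin was called (log2 fold change 0.59 and adjusted p = 0.11 for Ctsl, 0.11 and 0.63 for Ctsb). Exons of other genes overlap 26.9% of the exons of Ctsl and 12.8% of those of Ctsb.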

How the data were processed

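Poly(A)-selected RNA of 6 keratinocyte cultures (3 control, 3 Dnmt1Δ/Δep) was sequenced, and libraries were grouped by their labels. The authors counted uniquely mapped reads per gene with htseq-count after alignment with STAR, and the deposited values are raw counts for 43629 Ensembl identifiers, of which 97.3% matched a symbol. The 5 entries that name no gene held 8.73% to 12.9% of reads and were left out. The submitters' processing notes name GRCm38, whereas the study's text names a human build for the STAR index. For the repeats it names a human build or another mouse build. The strand setting and the read length were not given in the sources used here. Cultures ran for 5 days by the methods and labels, and a figure legend gives less. Deposited tables of the authors' own comparisons (fold changes, p-values) and 12 columns of normalized counts in them were not used, nor was the table of repeats.

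Counts were tested with edgeR 4.0.16 (R 4.3.3), by the quasi-likelihood test after TMM normalization (factors 0.980 to 1.02) and filterByExpr (minimum counts 10 and 15), with Benjamini-Hochberg adjustment over the 16829 genes tested. Calls needed an adjusted p up to 0.05 with a log2 fold change of 1 or more in either direction. DESeq2 1.42.0 was an alternative. The p-values measure the spread between libraries described as biological replicates. CPM used TMM-scaled library sizes, and RPKM the exon length of GENCODE M21 on GRCm38. Intervals of ratios are exact 95% intervals for counting error, and a gene without control reads was set to 3 reads over the control group. Reads carry no molecular identifiers. Coding sequences were aligned with Biopython 1.88, and promoters came from RefSeq on GRCm38.p6. Calls were tested on simulated data.

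The replicate numbers were taken to pair the libraries. Libraries of the same number share a flow cell lane by the file headers (3 lanes), and their deviations from the group means correlated across genes (r = 0.46, 0.364 and 0.303, all above 0.1). For libraries of different numbers r ranged from -0.454 to 0.116, the highest also above 0.1. The study's methods state no block, so the blocked fit is an alternative.

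The members, the gene lists and the classes were chosen with earlier results of these data known. Values per library are given for members that were called or reached a mean of 1 RPKM in either group, and for called proteases, neighbours and other serpins. The values of Serpinb3c, Serpinb9c, Serpinb9f, Serpinb6d, Serpinb6e, Serpinb9d, Serpinb13, Serpinb3d, Serpinb1-ps1, Gm11397 and the uncalled proteases were named after they were seen. Alternatives were DESeq2, no TMM factors, no read filter, a filter of 1 RPKM, the replicate block, leaving out each library, other class limits, and the sum of 4 Serpinb9 copies, which was added after seeing the data.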

Additional observations from a re-analysis of the deposited data

How the results depend on the processing

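Of 246 alternative values for the 21 tested clade B serpins, 218 kept the direction and the side of the threshold, 13 changed direction, 10 gained and 5 lost the call. The number of upregulated members was 10 without a read filter, when all 27 were tested (4.68% of all genes), 9 with DESeq2 (7.63%) and 8 with the replicate block (6.97%). It was 5 with the 4 Serpinb9 copies summed, 4 among genes of at least 1 RPKM, and 4 to 7 when a library was left out. For these last fits no share over all genes is given. Their counts, for the clade B serpins and for the other lists, are therefore not set against such a share. The number downregulated was 0 to 1 when a library was left out, with Serpinb3c called without control replicate 1. The replicate block added the calls of Serpinb9b and Serpinb9c and removed none.

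Among serpins of other clades, DESeq2 and the fit without a filter each called 4 upregulated and 1 downregulated, the replicate block 3 and 1, and the 1 RPKM filter 0 upregulated. Leaving out a library gave 0 to 3 upregulated and 0 to 1 downregulated. For the proteases it gave 1 to 4 upregulated, and 2 cluster neighbours were upregulated without the read filter. Serpinb1a turned to -0.01 with DESeq2 and without a filter. When a library was left out, the log2 fold change ranged from -0.36 to 0.50 for Serpinb1a, from -0.30 to 0.89 for Serpinb12, from -0.13 to 0.31 for Serpinb8, from -0.40 to 0.25 for Serpinb10, from -1.75 to 0.01 for Serpinb3a and from -1.11 to 0.27 for Serpinb3b. All of these were uncalled in each fit, and the cause was not tested.

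Active members numbered 18 with a limit of 0.1 RPKM in place of 1, and silent members 9 with a limit of 10 reads in place of 3. Depth sets the limit for Serpinb13, Serpinb3d, Serpinb6e and Serpinb9d, for which no change was detectable at this depth, and shared stretches leave the values of Serpinb9f and Serpinb9g least certain.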
